A study of Mus musculus with 48 samples.

Results

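The 54 genes described here are the collagen and laminin chains of the mouse striatum: 43 collagen and 11 laminin chains. They were taken from 24060 rows of the deposited count table as the symbols that follow the collagen (Col, a number, a, a number) or laminin (Lama, Lamb or Lamc and a number) naming pattern and that had at least 10 reads in at least 4 of the 48 libraries. Of 55 symbols with such a name, Col10a1 alone fell outside the rule, with reads in 40 libraries and a highest count of 9. Just inside it, Col6a6 reached 10 reads in 10 libraries and Col28a1 in 19.

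The libraries came from striata in which an adeno-associated virus (AAV) had put Rpl22-HA, a ribosomal protein with an epitope tag, into astrocytes for 3 weeks. RNA that came down with the tag is the IP fraction, and RNA of the whole cleared lysate is the input. Each of 3 experiments had 4 mice a condition and 1 IP and 1 input library a mouse, which gave 12 groups of 4 libraries. The first set MPTP (20 mg/kg, 4 doses), used to ablate dopaminergic neurons, against vehicle. The labels place both of these injections in the striatum. The second set SAPAP3 knockout mice, a model of obsessive-compulsive disorder that lacks the postsynaptic scaffold encoded by Dlgap3, against wild-type littermates. The third set astrocytic hM4Di, a designer Gi-coupled receptor, against a control cargo. All mice of the third experiment were R6/2, which carry a fragment of mutant human huntingtin, so it holds no mouse without that transgene. The mice were adults of the strain given as C57. Age, sex and the agent given to activate hM4Di are not given in the sources used here. In MPTP replicate 2 the IP and input titles carry different animal names, and in wild-type replicate 3 the animal name could stand for 2 mice.

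Collagens are trimers of α chains with a triple-helical part. Fibrillar types (I, II, III, V, XI) form fibrils, type IV forms the sheet of basement membranes, and FACIT types attach to the surface of fibrils. Laminins are cross-shaped trimers of 1 α, 1 β and 1 γ chain that begin basement membrane assembly and bind integrins and dystroglycan. In the brain, a basement membrane lies between the endothelium and the astrocyte endfeet around vessels and another under the pia. Vascular cells and astrocytes are known to contribute different laminin chains to them.

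Sequencing depth was 34.3 to 61.5 M counted reads in IP libraries and 21.9 to 39.0 M in inputs. All 10 astrocyte markers were over 2-fold higher in IP than in input in each experiment, with median log2 ratios of 2.61, 2.34 and 2.48 in the MPTP, SAPAP3 and R6/2 experiments. All 10 microglial markers and 10 of 12 endothelial markers were over 2-fold lower in each. Other lists were higher in IP too: 7 of 7 ependymal markers in each experiment, and 9, 7 and 9 of 10 striatal interneuron markers. Oligodendrocyte markers were called higher for 0, 4 and 0 of 9 genes. Further lists were summed in CPM (counts scaled to library size). Pericyte and smooth muscle markers reached 129 to 147 in vehicle IP and 164 to 184 in vehicle input. In wild-type mice they were 140.5 to 161 in IP and 148 to 173 in input. With control cargo they were 88.0 to 93.5 and 138 to 148. Fibroblast and leptomeningeal markers without Apod were 111 to 120 in vehicle IP and 114 to 120 in vehicle input. In wild-type mice they were 94.5 to 169 and 98.8 to 114, and with control cargo 26.0 to 40.0 and 103 to 117. Oligodendrocyte precursor markers were 453 to 480 in vehicle IP and 333 to 380 in vehicle input. In wild-type mice they were 484 to 676.5 and 320.5 to 358, and with control cargo 209 to 238.5 and 374 to 383.5. Some lists share genes: Pdgfra is in the fibroblast and the precursor list, and Cspg4 in the pericyte and the precursor list. Pdgfra made up 22.5% of the mean precursor sum of 470 CPM in vehicle IP and 21.6% of 359 in vehicle input. It was thus most of the fibroblast sum without Apod in both. Cspg4 made up 37.8% of the pericyte sum in wild-type IP and 43.5% in knockout IP. These sums therefore do not each stand for a single cell type. The part of these cells in the ratios below was not tested. Dlgap3 averaged 72.3 ± 18.0 CPM (counts scaled to library size) in knockout IP and 192 ± 28.4 in wild-type IP, and 176 ± 17.4 in knockout input and 403 ± 51.4 in wild-type input (SD, n = 4 each). It was therefore lower in knockout libraries but not at 0.

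The most abundant member per transcript length in IP was Lamb2, the β2 chain, with a median of 16.8 FPKM (a level scaled by transcript length and library size) over 24 IP libraries against 4.49 over 24 inputs. Col25a1, a transmembrane collagen of neurons, came next with 12.8 FPKM in IP and 10.5 in input. Lamb1, the β1 chain, had 9.95 in IP and 10.2 in input, and Lamc1, the γ1 chain, 9.41 and 7.67. Col11a2, a minor fibrillar chain, had 8.42 in IP and 2.80 in input, and Lama2, the α2 chain, 7.44 and 2.98. Col9a3 had 6.43 FPKM in IP and 3.47 in input, Col16a1 4.43 and 1.74, and Col6a1 2.97 and 7.06. The main vascular type IV chains came after these in IP: Col4a1 had 2.95 FPKM in IP and 4.34 in input, and Col4a2 had 2.75 and 3.85. The lowest member in IP was Col6a6, with 0.0110 FPKM in IP and 0.0355 in input. Of the 54 members, 45 had a mean of at least 1 CPM over the 48 libraries and 9 were below it.

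**Figure D1:**
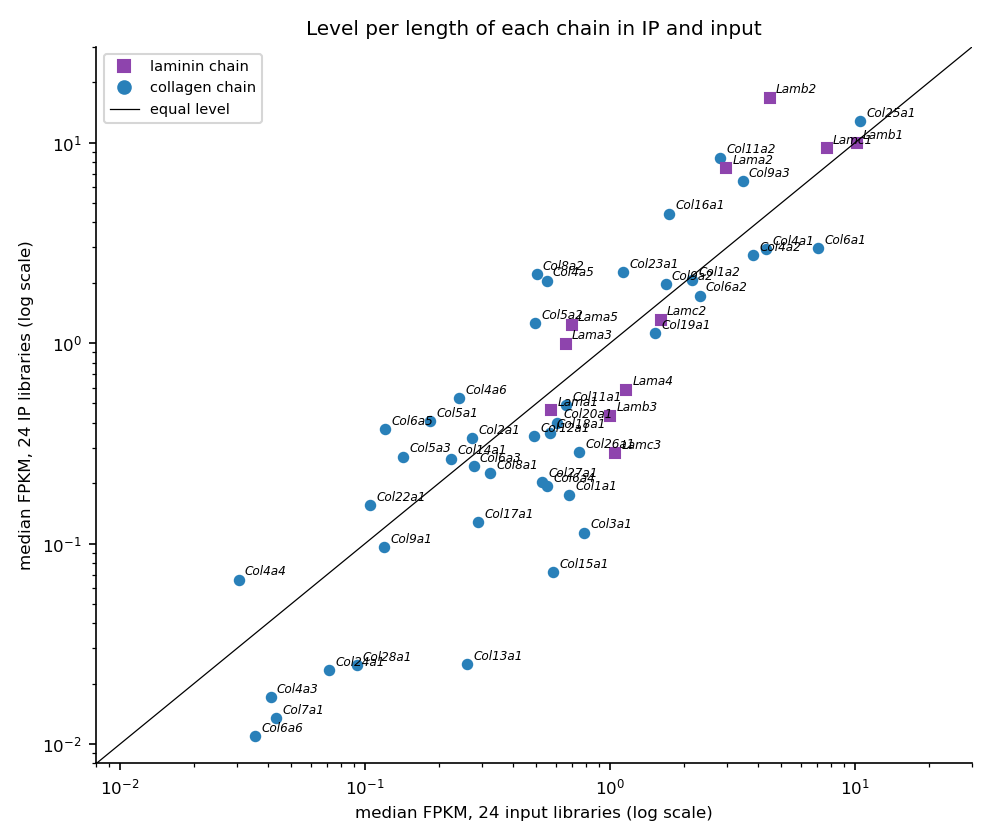
Median FPKM of each of the 54 chains over 24 IP libraries (vertical, log scale) against the median over 24 input libraries (horizontal, log scale). Points above the diagonal are higher in IP: Lamb2 sits at 16.8 FPKM in IP and 4.49 in input, whereas Col15a1 sits at 0.0720 in IP and 0.587 in input.

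The first question was from which cells the chains come, read from IP against input libraries of the same replicates. A chain was called when its adjusted p in edgeR's quasi-likelihood test was under 0.05 and its fold over 2. In the MPTP experiment 16 of 53 members tested were higher in IP and 10 lower, where 12.5% of all 15862 genes tested were called higher and 14% lower. In the SAPAP3 experiment 13 of 53 were higher and 10 lower, against 11.9% and 13% of all genes. In the R6/2 experiment 12 of 54 were higher and 14 lower, against 11.3% and 12.3%. The median log2 ratio of the members was 0.15, -0.04 and -0.19 in the 3 experiments, against -0.02, -0.00 and -0.02 over all genes. The family therefore did not lean to one fraction as a whole but split by chain.

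Of 52 members tested in all 3 experiments, 9 were higher in IP in each (17.3%, against 8.86% of 15409 genes). These were Lamb2, Lama2, Lama5, Col4a5, Col4a6, Col11a2, Col16a1, Col8a2 and Col6a5. Another 8 were lower in each (15.4%, against 8.09%), namely Lamc3, Col1a1, Col3a1, Col15a1, Col13a1, Col24a1, Col26a1 and Col6a4. Of the rest, 8 were higher in 1 or 2 experiments, 8 were lower in 1 or 2, and 21 were called in none. No member was called higher in one experiment and lower in another.

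**Figure D2:**
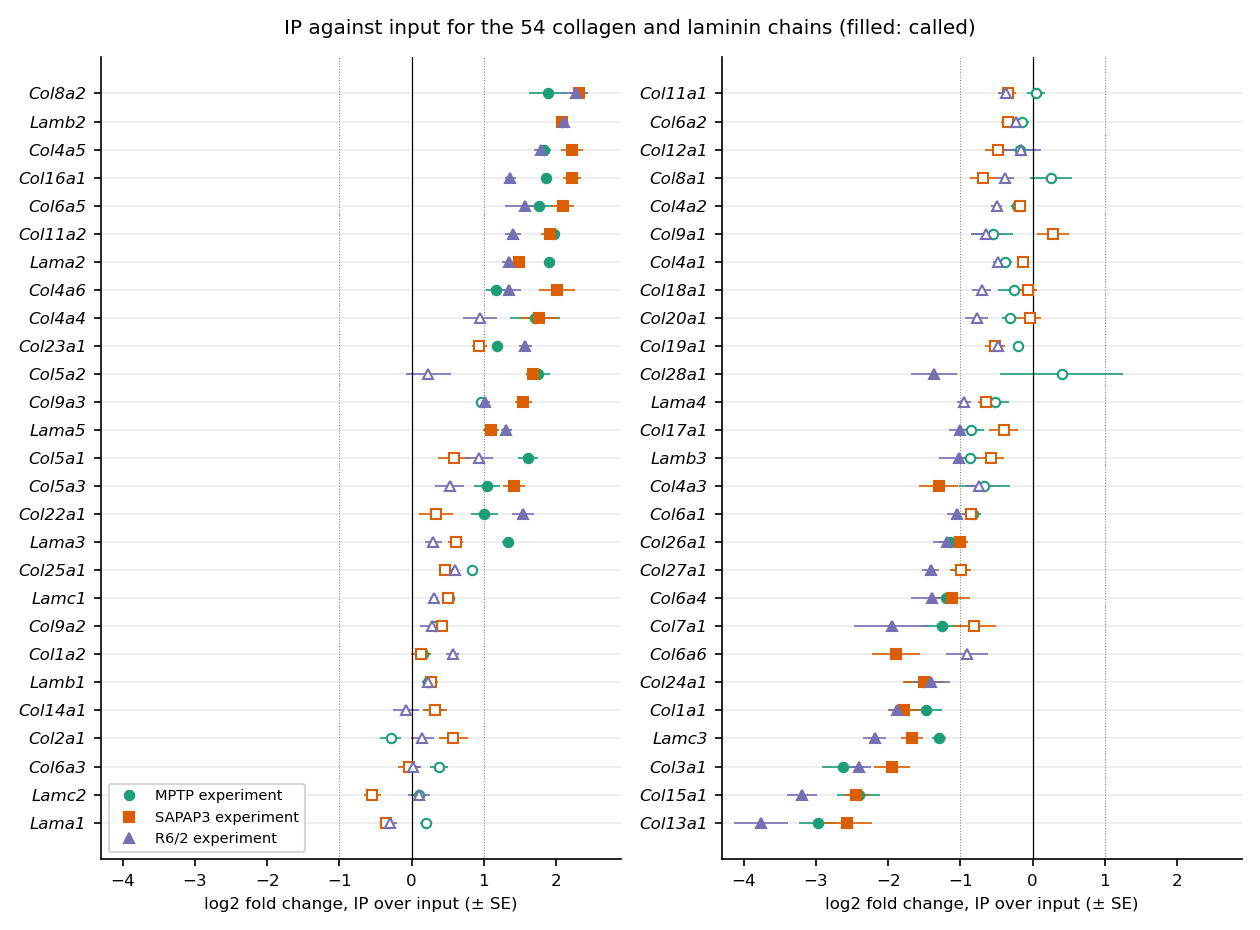
Log2 ratio of IP over input for each chain, ± SE, in the MPTP (circles), SAPAP3 (squares) and R6/2 (triangles) experiments; filled symbols passed the test with over 2-fold change, and dotted lines mark 2-fold. Lamb2 lies near 2.1 in all 3, and Col13a1, Col15a1 and Col3a1 form the low end.

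Among laminin α chains, Lama2, known from muscle and from astrocyte endfeet, had a lowest, median and highest level of 66.8, 77.5 and 100.7 CPM in IP and 18.2, 27.5 and 39.1 CPM in input. It was higher in IP in 24 of 24 IP-input pairs, with no overlap between the fractions. Its log2 ratio was 1.91 ± 0.05, 1.49 ± 0.07 and 1.34 ± 0.10 (SE) in the MPTP, SAPAP3 and R6/2 experiments. Lama5, the α5 chain found in mature vessel walls and epithelia, had 9.18, 15.8 and 33.0 CPM in IP and 3.71, 7.88 and 11.7 in input, again higher in 24 of 24 pairs, with log2 ratios of 1.10, 1.10 and 1.31. Lama4, the α4 chain of endothelial basement membranes, went the other way, with 2.35, 3.72 and 8.36 CPM in IP and 4.16, 6.52 and 8.61 in input. Its log2 ratios of -0.52, -0.65 and -0.95 did not pass 2-fold. Lama1, the α1 chain of the pial and early vascular membrane, lay near equality at 0.19, -0.36 and -0.30. Lama3 was called higher in the MPTP experiment alone, at 1.33, and had ratios of 0.61 and 0.30 in the SAPAP3 and R6/2 experiments.

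Among β chains, Lamb2 (chr9:108479736-108490530, plus strand, mm10) had 77.3, 104 and 150 CPM in IP and 17.7, 24.7 and 31.6 in input. The IP and input ranges lay far apart in every experiment, and the log2 ratio was 2.08 ± 0.05, 2.08 ± 0.08 and 2.11 ± 0.04. Lamb1 had 39.7, 62.0 and 96.4 CPM in IP and 31.2, 55.1 and 65.8 in input. Its log2 ratios of 0.22, 0.27 and 0.23 were well short of 2-fold and the fractions overlapped. On the FPKM scale Lamb2 was thus above Lamb1 in IP, and Lamb1 above Lamb2 in input. Lamb3, the β3 chain of epithelia, was lower in IP in 24 of 24 pairs and called in the R6/2 experiment, at -1.02.

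Among γ chains, Lamc1, the γ1 chain shared by most laminins, had 68.6, 74.9 and 90.9 CPM in IP and 49.0, 56.5 and 71.6 in input. It was higher in IP in all 24 pairs, but by log2 ratios of 0.51, 0.51 and 0.31 only. Lamc3, the γ3 chain, had 0.953, 1.86 and 3.09 CPM in IP and 4.57, 5.96 and 8.89 in input. Its fractions did not overlap, and its log2 ratios were -1.30, -1.67 and -2.19. An antisense gene covers 6.27% of its exonic bases.

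The 6 type IV chains are encoded as 3 head-to-head gene pairs, each read outward from a shared stretch of DNA, and the pairs differed in fraction. Col4a1 and Col4a2, the chains of nearly all basement membranes, start 21 bases apart on chromosome 8 with their first bases overlapping. Col4a4 and Col4a3 start 72 bases apart on chromosome 1, and Col4a6 and Col4a5 start 1309 bases apart on chromosome X. The stretches around these starts are shown because they are the DNA that the chains of a pair share or flank. Each runs 5′ to 3′ on the named gene's strand from 250 bases before to 50 after its start (RefSeq, GRCm38.p6). Capitals mark the CCAAT box, the GC box GGGCGG and the TATA motif TATAAA, each searched on either strand, and marked runs do not overlap in these stretches. The Col4a1 stretch (chr8:11312777-11313076, minus strand) also holds the start of Col4a2, and the Col4a4 stretch (chr1:82586800-82587099, minus strand) that of Col4a3. The X-linked pair has a stretch each (chrX:141474027-141474326, minus strand, and chrX:141475169-141475468, plus strand).
Col4a1: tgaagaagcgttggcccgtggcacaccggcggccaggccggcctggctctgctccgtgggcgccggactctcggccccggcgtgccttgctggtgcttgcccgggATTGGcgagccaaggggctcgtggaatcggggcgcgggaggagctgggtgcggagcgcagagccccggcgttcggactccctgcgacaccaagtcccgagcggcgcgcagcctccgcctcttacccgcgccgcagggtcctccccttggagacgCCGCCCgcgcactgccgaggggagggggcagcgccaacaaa
Col4a4: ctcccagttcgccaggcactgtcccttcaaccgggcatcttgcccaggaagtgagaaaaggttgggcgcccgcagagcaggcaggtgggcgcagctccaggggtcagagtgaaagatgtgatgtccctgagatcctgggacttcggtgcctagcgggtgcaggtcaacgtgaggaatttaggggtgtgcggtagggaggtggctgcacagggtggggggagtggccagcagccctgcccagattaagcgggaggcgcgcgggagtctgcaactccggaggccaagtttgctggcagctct
Col4a6: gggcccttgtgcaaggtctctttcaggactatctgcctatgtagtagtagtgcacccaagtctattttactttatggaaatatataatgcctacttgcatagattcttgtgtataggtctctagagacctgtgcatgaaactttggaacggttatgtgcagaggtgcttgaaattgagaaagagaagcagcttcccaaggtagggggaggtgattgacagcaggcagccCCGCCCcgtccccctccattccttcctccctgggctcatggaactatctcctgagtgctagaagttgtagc
Col4a5: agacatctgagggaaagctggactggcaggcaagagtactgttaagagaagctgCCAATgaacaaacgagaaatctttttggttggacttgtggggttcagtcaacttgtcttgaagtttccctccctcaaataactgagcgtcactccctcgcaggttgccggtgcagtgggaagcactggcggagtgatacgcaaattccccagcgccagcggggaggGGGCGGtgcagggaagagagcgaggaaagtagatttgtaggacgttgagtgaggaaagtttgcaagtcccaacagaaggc
The Col4a1 and Col4a5 stretches hold the CCAAT box and the GC box, the Col4a6 stretch the GC box alone and the Col4a4 stretch none of the motifs. Over the 39 members with a RefSeq promoter stretch, 13 hold the CCAAT box, 25 the GC box and 4 the TATA motif, where the shares of all 27025 such stretches are 37.9%, 35.9% and 14.2%. A match to letters is not a binding site.

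The X-linked pair was higher in IP. Col4a5, the α5 chain, had 9.49, 14.0 and 25.0 CPM in IP and 2.56, 3.43 and 6.95 in input, without overlap, and its log2 ratios were 1.84, 2.22 and 1.79. Col4a6, the α6 chain, had 2.63, 3.74 and 9.83 CPM in IP and 1.05, 1.50 and 2.19 in input, also without overlap, with ratios of 1.16, 2.01 and 1.35. The chromosome 8 pair was slightly lower in IP. Col4a1 had 16.6, 21.2 and 29.0 CPM in IP and 20.5, 26.5 and 34.8 in input, with IP above input in 3 of 24 pairs and log2 ratios of -0.39, -0.14 and -0.48. Col4a2 had 14.4, 19.0 and 24.5 CPM in IP and 15.1, 23.5 and 31.3 in input, with ratios of -0.22, -0.17 and -0.50. Within each of these pairs the ratios had the same sign. In the chromosome 1 pair they did not: Col4a4, the α4 chain, was above input in 24 of 24 pairs and Col4a3, the α3 chain, in 2 of 24. Both are rare here, with medians of 0.538 CPM in IP and 0.223 in input for Col4a4 and 0.163 and 0.344 for Col4a3. The log2 ratios of Col4a4 were 1.71, 1.76 and 0.94, and those of Col4a3 were -0.67, -1.30 and -0.74. A non-coding gene on the other strand covers 5.65% of the exonic bases of Col4a3.

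Fibrillar chains split between the fractions. Of 11 members, 4 were higher and 4 lower in the MPTP experiment, 3 and 3 in the SAPAP3 experiment, and 1 and 4 in the R6/2 experiment. Col11a2 had 29.3, 52.4 and 74.2 CPM in IP and 12.02, 14.4 and 20.6 in input, with log2 ratios of 1.98, 1.92 and 1.40. The chains of type I and III collagen, the main products of fibroblasts, were at the other end. Col3a1 had 0.293, 0.657 and 2.33 CPM in IP and 1.68, 4.00 and 7.53 in input, with ratios of -2.63, -1.95 and -2.41. Col1a1 had 0.598, 0.883 and 2.04 CPM in IP and 1.85, 3.07 and 5.42 in input, with ratios of -1.48, -1.79 and -1.87. Col1a2, whose product pairs with that of Col1a1 in type I collagen, differed from it: it had 6.95, 11.9 and 20.7 CPM in IP and 7.87, 10.1 and 11.8 in input, and ratios of 0.15, 0.12 and 0.57 that called no difference. The type V chains Col5a1, Col5a2 and Col5a3 were called higher in some experiments, with ratios of 1.61, 0.58 and 0.93 for Col5a1, 1.76, 1.69 and 0.23 for Col5a2, and 1.04, 1.42 and 0.52 for Col5a3.

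Among FACIT and related chains, none of 9 was called lower in any experiment, where 14%, 13% and 12.3% of all genes were. Below the 2-fold limit, Col19a1 was above input in 0 of 24 pairs, with a mean log2 ratio of -0.40. Col16a1, a FACIT chain of type XVI collagen, had 19.3, 24.1 and 75.3 CPM in IP and 4.79, 8.19 and 13.6 in input, with no overlap and log2 ratios of 1.87, 2.22 and 1.37. Col9a3, a chain of type IX collagen, was called in 2 experiments at 1.55 and 1.02, and reached 0.96 in the MPTP experiment. Its exons share 6.07% of their bases with Tcfl5 on the other strand. Among short-chain collagens, Col8a2 had 4.68, 9.98 and 16.2 CPM in IP and 1.29, 2.10 and 4.40 in input, with ratios of 1.89, 2.31 and 2.27. Its partner Col8a1 had ratios of 0.25, -0.68 and -0.38.

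Chains at the low end included Col15a1, a multiplexin chain of vessel basement membranes. It had 0.171, 0.406 and 1.81 CPM in IP and 1.97, 3.01 and 6.07 in input, and log2 ratios of -2.41, -2.44 and -3.19. Its relative Col18a1 was at -0.26, -0.06 and -0.71. Among transmembrane chains, Col13a1 was lowest of all at -2.98, -2.57 and -3.77 on a median of 0.0816 CPM in IP and 0.675 in input, Col23a1 was higher at 1.18, 0.94 and 1.57, and Col25a1 was above input in 24 of 24 pairs at 0.83, 0.46 and 0.59. Among type VI chains, Col6a1 was below input in all 24 pairs, at -0.82, -0.85 and -1.04, whereas Col6a5 was higher at 1.77, 2.09 and 1.57 and Col6a2 had ratios of -0.15, -0.34 and -0.23.

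Genes that make, bind or cut these chains were tested in the same fits, where 12.5%, 11.9% and 11.3% of all genes were called higher in IP and 14%, 13% and 12.3% lower. Of 18 collagen-modifying enzymes and chaperones, 6, 8 and 7 were higher in the MPTP, SAPAP3 and R6/2 experiments and none lower. Serpinh1, a collagen-specific chaperone, had log2 ratios of 1.53, 1.99 and 2.01, and Fkbp10, a proline isomerase of the endoplasmic reticulum, 2.25, 2.46 and 2.40. Of 19 collagen and laminin receptors, 10, 10 and 9 were higher and 1 was lower in each. Ddr2, a collagen receptor kinase, had ratios of 2.40, 1.97 and 1.73, and Itga7, a laminin-binding integrin chain, 1.92, 1.49 and 1.89. Of 14 basement membrane partners, 7, 6 and 5 were higher and 2, 3 and 2 lower. Sparc, which binds collagen IV, had 1.64, 2.03 and 1.59, and Nid1, which links laminin to collagen IV, -0.72, -1.19 and -1.92. Of 16 matrix proteases and inhibitors, 9, 8 and 7 were higher and 1, 0 and 0 lower. Of 11, 12 and 11 processing and crosslinking genes tested, 3, 2 and 2 were higher and 2 were lower in each: Loxl1 had 2.22, 1.96 and 2.17 and Lox -3.58, -2.83 and -2.58.

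For some chains the fractions were further apart in some experiments than in others. A comparison added after the data were seen set the log2 IP-over-input ratio of control-cargo R6/2 mice against the mean of vehicle and wild-type mice, in 1 fit of all 48 libraries. The ratio was lower in R6/2 mice for 6 of 54 members and higher for none, where 10.2% of genes were called lower and 5.32% higher. The share of members called lower was thus near that of all genes. The differences were -1.57 ± 0.40 for Col5a2, -1.36 ± 0.48 for Col4a4, -0.79 ± 0.19 for Lama3, -0.66 ± 0.19 for Col11a2, -0.58 ± 0.16 for Col16a1 and -0.44 ± 0.13 for Lama2 (SE). Col5a2 was uneven in R6/2 inputs, at 17.1, 8.58, 9.27 and 3.16 CPM with control cargo, against 3.20, 2.93, 3.05 and 3.42 with vehicle and 2.79, 2.59, 2.15 and 2.60 in wild-type mice. With the mouse as a replicate block 11 members were lower and 4 higher. The share of all genes with that block is not given here. The IP libraries of these groups also differed in other cell types' markers. Summed oligodendrocyte precursor markers were 209 to 238.5 CPM in control-cargo IP, 453 to 480 in vehicle IP and 484 to 676.5 in wild-type IP. Fibroblast and leptomeningeal markers without Apod were 26.0 to 40.0, 111 to 120 and 94.5 to 169. Pdgfra is in this list and in the precursor list, so their sums are not separate readings. The part of these cells' RNA in the lower ratios was not tested. Experiment, genotype and batch cannot be told apart here.

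The second question was whether each perturbation moved the chains. Here a chain was called at an adjusted p under 0.05 with no fold limit. In bulk RNA, fewer cells of a type and less RNA per cell cannot be told apart. Summed over all members, levels were 717 to 810 CPM in MPTP IP and 703 to 808 in vehicle IP, 789 to 839 in knockout IP and 704 to 774 in wild-type IP, and 774 to 879 in hM4Di IP and 747 to 787 in control-cargo IP. In input they were 419 to 464 CPM with MPTP and 443 to 480 with vehicle, 469 to 558 in knockout and 505 to 528 in wild-type mice, and 547 to 573 with hM4Di and 505 to 568 with control cargo.

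**Figure D3:**
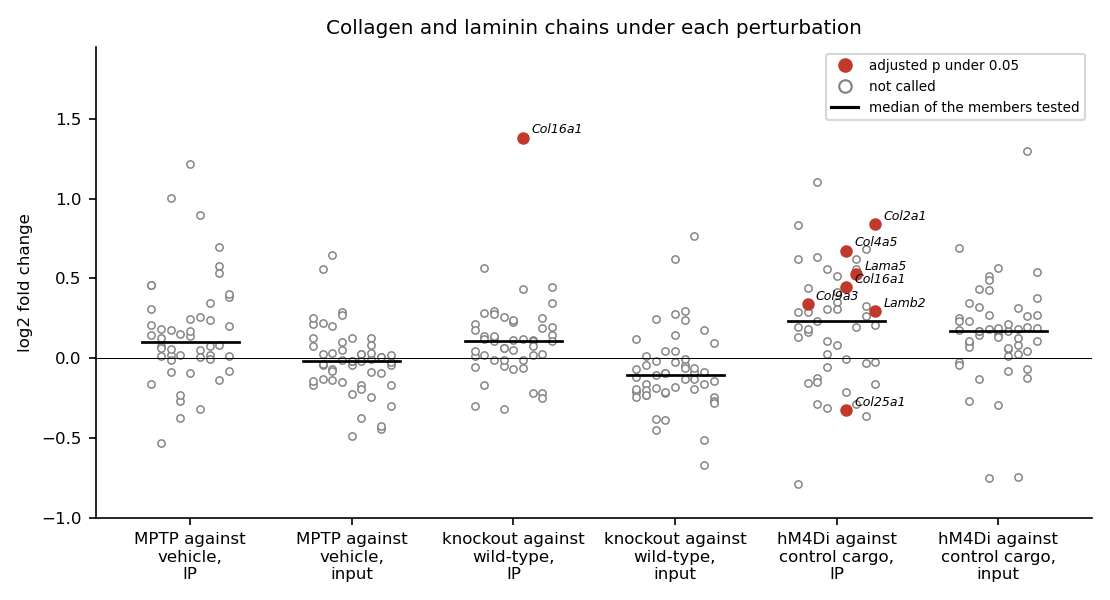
Log2 fold change of each chain tested, in IP and in input, for MPTP over vehicle, knockout over wild-type and hM4Di over control cargo; red points passed an adjusted p of 0.05 and black bars are medians. Red points appear in 2 columns: 1 in knockout IP (Col16a1, at 1.38) and 7 in hM4Di IP.

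No collagen or laminin chain passed the test after MPTP. In IP, 0 of 48 members tested were called, where 0% of 15069 genes were, and 8 members (16.7%) had an unadjusted p under 0.05, against 11.2% of all genes. Lama1 had the smallest p. It had 5.12, 4.15, 4.03 and 4.15 CPM in MPTP IP, against 6.91, 6.29, 6.10 and 6.14 in vehicle IP. The 4 MPTP libraries all lay below the 4 vehicle libraries, as did those of 5.51% of all genes, and the log2 fold change was -0.53 ± 0.11 (edgeR adjusted p = 0.115). DESeq2 called it, with an adjusted p of 0.00325. Over the alternatives that left out 1 library in turn its adjusted p was 0.0563 to 0.364. Col9a3 followed with 19.7, 19.5, 18.1 and 21.0 CPM in MPTP IP and 18.2, 17.1, 16.4 and 16.7 in vehicle IP (0.21, adjusted p = 0.273). Col27a1, a minor fibrillar chain, had 1.56, 1.91, 1.67 and 2.02 with MPTP and 1.63, 1.01, 1.12 and 1.22 with vehicle (0.54, adjusted p = 0.314). Both groups of each chain overlapped.

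The only member with all MPTP IP libraries above all vehicle IP libraries was Col15a1, where 1.51% of all genes showed this. It had 0.373, 1.81, 0.423 and 0.461 CPM in MPTP IP, against 0.259, 0.351, 0.288 and 0.348 in vehicle IP. One library, MPTP replicate 2, carried most of the difference, and the log2 fold change was 1.22 ± 0.54 (adjusted p = 0.443). The same library held the highest IP values of Col3a1 (2.33 CPM), Col1a1 (2.04), Lama4 (8.36) and Col4a1 (29.0) over all 24 IP libraries. Its summed pericyte and smooth muscle markers, at 121 CPM, were the highest of its group (101 to 121). Its endothelial markers were 103 CPM in a group range of 90.4 to 106, but Slc2a1 was 67.9% of the group mean. Without Slc2a1 they were 34.7 CPM, the highest of the group (29.2 to 34.7), where vehicle IP had 28.2 to 33.0. Its fibroblast markers without Apod were 83.8 in a range of 70.0 to 97.4. Their part in these values was not tested.

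In input, 0 of 52 members were called after MPTP, against 0% of 15601 genes, by edgeR and by DESeq2, and 8 had an unadjusted p under 0.05 (15.4%, against 8.26% of all genes). Col14a1, a FACIT chain, had 1.73, 1.39, 1.21 and 1.69 CPM in MPTP input, against 2.43, 2.30, 2.08 and 1.69 in vehicle input (-0.49, adjusted p = 0.535). Lamb1 had 55.7, 54.8, 52.0 and 51.2 CPM with MPTP and 62.9, 55.9, 56.7 and 59.4 with vehicle (-0.13, adjusted p = 0.535). Col17a1, a transmembrane collagen of hemidesmosomes, had 1.38, 1.39, 1.34 and 1.03 with MPTP and 1.63, 1.93, 1.92 and 1.59 with vehicle (-0.45, adjusted p = 0.535). The IP change minus the input change was called for 0 of 53 members by either tool (0% of genes), with 3 at an unadjusted p under 0.05 (5.66%, against 7.98% of all genes). In input, groups did not overlap for Lamb1, Col17a1 and Lamb2, which were lower, and for Lamb3, which was higher (3.06% and 1.53% of all genes). Summed pericyte and smooth muscle markers were lower after MPTP in both fractions, at 101 to 121 CPM in MPTP IP and 129 to 147 in vehicle IP, and at 144 to 158 in MPTP input and 164 to 184 in vehicle input. Fibroblast and leptomeningeal markers without Apod were 70.0 to 97.4 CPM in MPTP IP and 111 to 120 in vehicle IP, also without overlap. Pdgfra, also a precursor marker, was most of that vehicle IP sum, so it does not mark fibroblasts alone. Choroid plexus markers were 16.1 to 21.2 in MPTP IP and 12.4 to 15.7 in vehicle IP. Their part in the values of Lama1 and the other chains was not tested.

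In SAPAP3 knockout mice, 1 of 49 members changed in IP, and it was Col16a1. Of all genes 0.0263% were called, 0.00658% higher and 0.0197% lower. Col16a1 had 66.9, 75.3, 57.3 and 61.5 CPM in knockout IP, against 21.1, 30.2, 21.3 and 27.9 in wild-type IP. The lowest knockout library was well above the highest wild-type library, an order that 0.776% of all genes showed. The log2 fold change was 1.38 ± 0.13 (adjusted p = 0.00739). In input it had 13.6, 12.4, 9.60 and 11.4 CPM in knockout mice, against 7.76, 7.67, 6.43 and 5.87 in wild-type mice, again with no overlap. The input fold change of 0.76 ± 0.14 did not pass in edgeR (adjusted p = 0.617) and passed in DESeq2 (adjusted p = 0.00126). The IP change exceeded the input change by 0.62 ± 0.20, which did not pass (adjusted p = 1.00). No other experiment held IP values as high: Col16a1 had 25.3, 22.4, 19.3 and 21.0 CPM in MPTP IP and 22.6, 19.3, 21.9 and 21.9 in vehicle IP.

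Without wild-type replicate 4 the call was lost, at an adjusted p of 0.0503 and a log2 fold change of 1.44. Without knockout replicate 1 and wild-type replicate 4, the mice with over 10 CPM of Xist, the adjusted p was 0.164 at 1.43. Leaving out any other library gave 0.0155 to 0.0430. Col16a1 lies on the chromosome of the deleted gene, at chr4:130047840-130099283 on the plus strand, 2.811 Mb from Dlgap3 (chr4:127169204-127237022). Sequence that came with the targeted chromosome and an effect of the deletion cannot be told apart in this design. Of 5 members on chromosome 4, 3 lie within 10 Mb of Dlgap3. The other two, Col8a2 at 0.855 Mb and Col9a2 at 6.114 Mb, had IP fold changes of 0.02 and -0.06. The start of Col16a1 is shown because it carries the single change of the knockout (chr4:130047590-130047889, plus strand, GRCm38.p6, capitals as above).
Col16a1: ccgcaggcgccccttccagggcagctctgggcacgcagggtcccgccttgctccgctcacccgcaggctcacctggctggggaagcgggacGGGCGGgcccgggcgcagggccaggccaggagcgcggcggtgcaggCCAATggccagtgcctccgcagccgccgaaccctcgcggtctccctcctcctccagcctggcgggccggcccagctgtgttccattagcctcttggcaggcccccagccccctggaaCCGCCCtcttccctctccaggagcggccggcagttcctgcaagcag
It holds the CCAAT box and the GC box and no TATA motif.

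**Figure D4:**
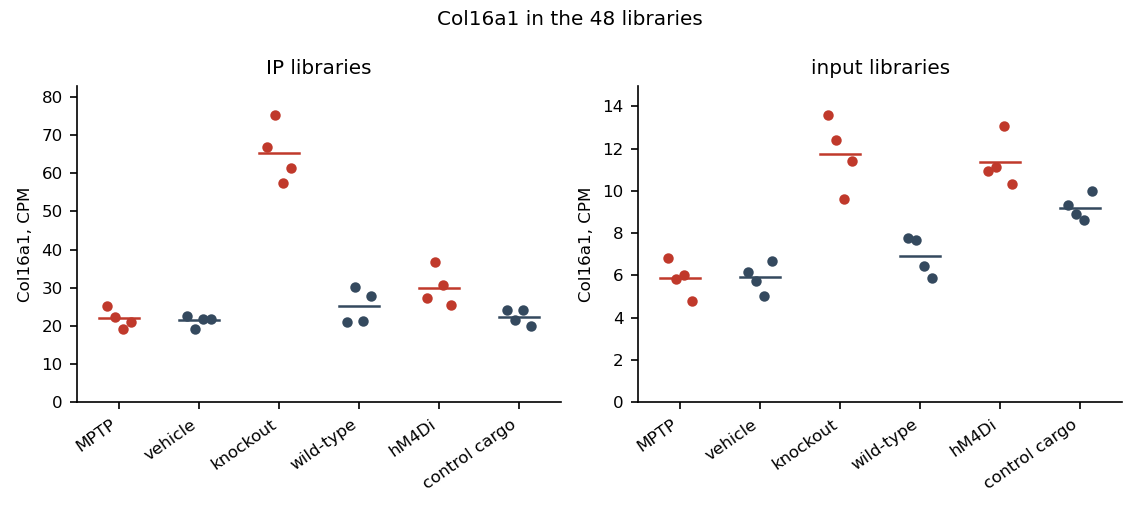
Col16a1 in CPM in each of the 48 libraries, IP and input in separate panels, with each condition left of its control and a line at the group mean. Knockout IP libraries (57.3 to 75.3) stand above all other IP libraries, of which the highest is an hM4Di library at 36.7.

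The other chains of the knockout showed no call. In IP 36 of 49 members had log2 fold changes above 0 (median 0.11), as had 52.6% of all genes (median 0.01). In input 13 of 51 were above 0 (median -0.11), against 49.5% of all genes (median -0.00). In input 0 members were called by edgeR, against 0.00641% of genes, and 2 had an unadjusted p under 0.05 (3.92%, against 5.57% of all genes). Col17a1 had 0.626, 0.830, 0.620 and 0.666 CPM in knockout input, against 1.43, 0.898, 1.06 and 0.994 in wild-type input, with no overlap (-0.67, adjusted p = 0.735; 1.71% of all genes lay below the control in this way). Col22a1, a chain of tissue junctions, had 0.955, 1.06, 0.915 and 0.807 CPM in knockout input, against 0.398, 1.00, 0.343 and 0.673 in wild-type input, with overlap (0.62, adjusted p = 0.735). The IP change minus the input change was above 0 for 45 of 53 members (median 0.18) and for 52.4% of all genes (median 0.01). By edgeR or DESeq2 0 members were called (0% of genes), and 3 had an unadjusted p under 0.05 (5.66%, against 1.26% of all genes). Summed endothelial markers were 163 to 203 CPM in knockout input and 202 to 233 in wild-type input, and pericyte and smooth muscle markers 134 to 146 and 148 to 173. Their part in the members' input values was not tested.

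In R6/2 mice, astrocytic hM4Di changed 7 of 49 members in IP, where 14.7% of all 15159 genes were called. Here 6 chains were higher, where 9.06% of all genes were, and 1 was lower, where 5.63% were. At an unadjusted p under 0.05 were 17 members, 34.7% of them against 31.4% of all genes. The share of chains called was thus near that of all genes. Lamb2 had 142, 150, 118 and 130 CPM in hM4Di IP, against 115, 115, 108 and 108 in control-cargo IP (0.30 ± 0.07, adjusted p = 0.0263). Lama5 had 33.0, 29.3, 23.4 and 25.2 CPM with hM4Di and 19.9, 17.4, 20.6 and 20.2 with control cargo (0.52 ± 0.10, adjusted p = 0.0149). Both laminin chains, which were also IP-enriched, were higher in every hM4Di library than in any control library.

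Of the collagens that rose, Col4a5 had 19.0, 25.0, 24.3 and 19.9 CPM in hM4Di IP and 14.4, 16.2, 11.9 and 13.6 in control-cargo IP (0.67 ± 0.13, adjusted p = 0.0136). Col2a1, the chain of cartilage collagen, had 2.97, 3.58, 3.28 and 3.84 with hM4Di and 2.23, 2.48, 1.78 and 1.25 with control cargo (0.84 ± 0.20, adjusted p = 0.0283). Col16a1 had 27.2, 36.7, 30.8 and 25.5 with hM4Di and 24.1, 21.6, 24.0 and 19.9 with control cargo (0.45 ± 0.12, adjusted p = 0.0377). The groups did not overlap for any of these chains. Col9a3 rose with overlapping groups, at 31.5, 33.4, 30.2 and 35.6 CPM with hM4Di and 26.1, 25.7, 30.8 and 22.2 with control cargo (0.34 ± 0.09, adjusted p = 0.03998). In all, 7 members lay above the control without overlap (11.2% of all genes) and 2 below (11.8%).

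The chain that fell was Col25a1, which is cleaved from the neuronal membrane and binds amyloid in human brain. It had 101.5, 90.4, 95.7 and 98.8 CPM in hM4Di IP, against 118, 121, 123 and 130 in control-cargo IP. All hM4Di libraries lay below all controls, and the fold change was -0.33 ± 0.05 (adjusted p = 0.00499). In input it had 70.7, 71.6, 73.6 and 70.2 CPM with hM4Di and 72.4, 75.2, 74.8 and 79.5 with control cargo (-0.07). The IP change differed from the input change by -0.27 ± 0.06 (adjusted p = 0.0244), the only member of the interaction called, where 3.1% of genes were, 1.2% lower and 1.9% higher. That difference did not pass in 5 of the 8 fits that left out 1 mouse (hM4Di replicate 2, 3 or 4, or control-cargo replicate 1 or 3). With the mouse as a replicate block 5 members were called there: Col25a1, Lamb1 and Col4a2 lower, and Lama2 and Col9a2 higher. Lamb1 had 63.0, 62.3, 61.8 and 52.7 CPM in hM4Di IP, against 79.5, 68.0, 68.4 and 96.4 in control-cargo IP, without overlap, but did not pass (-0.36, adjusted p = 0.0698).

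**Figure D5:**
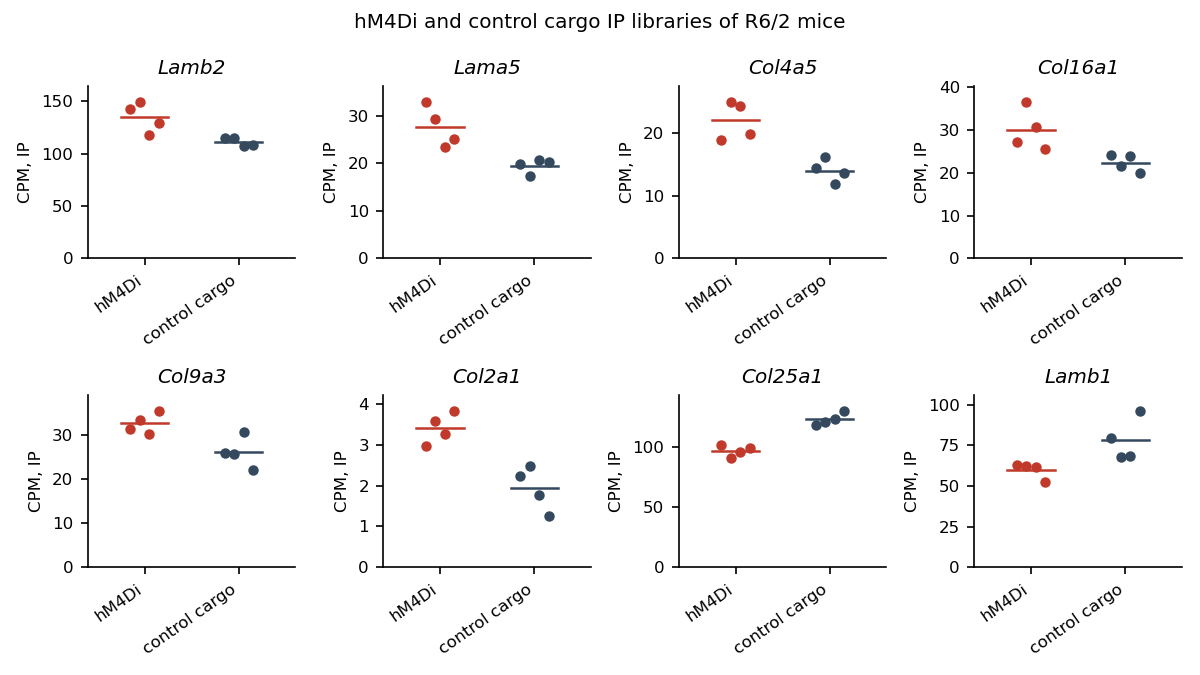
CPM from 0 of 8 chains in hM4Di IP libraries (left) and control-cargo IP libraries (right) of R6/2 mice, with a line at the group mean. Lamb2, Lama5, Col4a5, Col16a1, Col9a3 and Col2a1 are higher and Col25a1 lower with hM4Di; Lamb1 is shown as a chain that did not pass (adjusted p = 0.0698).

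Several of these IP calls depended on single libraries. The count of chains higher was 2 without control-cargo replicate 1 or without hM4Di replicate 2, and 3 without control-cargo replicate 3, control-cargo replicate 4 or hM4Di replicate 3. Lama5, Col4a5 and Col25a1 stayed called in every fit that left out 1 library. The hM4Di IP libraries also differed in other cell types' markers. All 9 oligodendrocyte markers were called higher, with a summed level of 5089 to 7203 CPM with hM4Di and 2813 to 3967 with control cargo. Of 12 medium spiny neuron markers 9 were lower. The summed level of the 10 astrocyte markers was 16350 to 17650 CPM with hM4Di and 19700 to 22810 with control cargo. Endothelial markers were 92.7 to 120 CPM with hM4Di and 81.6 to 91.2 with control cargo, and without Slc2a1 20.1 to 22.1 and 19.3 to 22.01. Fibroblast markers were 353 to 850 CPM with hM4Di and 176 to 259 with control cargo, and without Apod 24.8 to 31.4 and 26.0 to 40.0. The part of these cells' RNA in the chains' changes was not tested.

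In the hM4Di input, 0 of 53 members were called by edgeR or DESeq2, against 0.0198% of genes, and 12 had an unadjusted p under 0.05 (22.6%, against 7.67% of all genes). Fold changes were above 0 for 43 members, with a median of 0.17 against -0.00 over all genes, of which 49.6% were above 0. Summed pericyte and smooth muscle markers were 156 to 162 CPM in hM4Di input and 138 to 148 in control-cargo input, and microglial markers 466 to 572 and 409 to 459, both without overlap. Their part in the members' input values was not tested. Lamb2 had 30.4, 31.6, 29.9 and 30.5 CPM in hM4Di input, against 28.2, 26.5, 26.5 and 27.3 in control-cargo input (0.18, adjusted p = 0.422). Col16a1 had 10.95, 11.2, 13.1 and 10.3 with hM4Di and 9.32, 8.93, 8.62 and 9.98 with control cargo (0.31, adjusted p = 0.484). Col4a5 had 5.37, 6.95, 5.41 and 5.94 with hM4Di and 4.61, 4.74, 3.97 and 4.99 with control cargo (0.38, adjusted p = 0.504). Groups did not overlap for these 3 and for Col20a1, Col22a1 and Col3a1, all of them higher (2.47% of all genes), and for no member that was lower (2.11%).

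In IP, the genes that make and bind these chains showed calls with hM4Di alone among the 3 perturbations. In each list 0 were called after MPTP and in the knockout, where 0% and 0.0263% of all genes were. With hM4Di 9.06% of all genes were called higher in IP and 5.63% lower. Of 18 modifying enzymes and chaperones 8 were higher, including Serpinh1 (0.59) and Plod2, a lysyl hydroxylase (0.49). Of 9 processing and crosslinking genes tested 4 were higher, among them Loxl1 (0.79) and Adamts2, a procollagen peptidase (0.78). Of 19 receptors 9 were higher, including the collagen receptor kinases Ddr1 (0.60) and Ddr2 (0.54) and the syndecan Sdc1 (0.61). Of 14 basement membrane partners 3 were higher, with Sparc and Smoc1 at 0.62 each, and Fras1 was lower (-0.38). Of 16 proteases and inhibitors 3 were higher, led by Adamts1 (1.74), and Mmp17 was lower (-0.55). Whether these changes differed from those after MPTP or in the knockout was not tested.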

How the data were processed

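The authors deposited read counts per gene and FPKM (a level scaled by transcript length and library size) for 48 libraries. STAR, HTSeq and mm10 were used per the submitters' processing notes; versions and HTSeq's strand setting are not given in the sources used here. The kit was stranded and depleted of ribosomal RNA, per the labels' protocols. The deposited FPKM are the counts divided by 1 length per gene and the column total, with a relative SD of the implied length of at most 3.5e-07.

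Counts were tested with edgeR 4.0.16 (R 4.3.3; TMM scaling, filterByExpr, quasi-likelihood F test, two-sided, Benjamini-Hochberg over all genes tested), fitted on the 8 libraries of 1 fraction, or on the 16 of an experiment for IP against input and for the interaction. IP against input was called at an adjusted p under 0.05 and over 2-fold, other comparisons at an adjusted p under 0.05. CPM were scaled by TMM over all libraries. IP libraries held 34.3 to 61.5 M reads and inputs 21.9 to 39.0 M, and counting error is largest for the 9 members under 1 CPM. The tests were tested on simulated data. The alternatives were DESeq2 1.42.0, limma 3.58.1 on log2(FPKM + 1), other scaling and filters, other thresholds, replicate blocks and left-out libraries.

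The members and gene lists were chosen with earlier results of these data known. Values per library are given for Col16a1, for up to 6 called members with the smallest p in each perturbation, and for up to 3 where none was called. Members are otherwise given by range, ratio or count; the 4 highest and 4 lowest in IP over input had a mean of at least 1 CPM. Other genes are those of the lists, at most 4 a list by smallest p. Col9a3 (hM4Di), Lamb1 (hM4Di), Col15a1 (MPTP), Col5a2 (R6/2) and the Col25a1 input values were added after their values were seen. So were the MPTP IP replicate 2 values of further chains. IP and input were paired by condition and replicate number in the labels, and their deviations correlated at 0.0534 to 0.600. The lowest value is that of MPTP replicate 2, whose titles carry different animal names. Replicate numbers across conditions do not pair mice (correlations -0.298 to 0.348). Nothing beyond separate animal names says how replicates were raised, so p-values of fits within 1 fraction measure the spread between these mice. The main fits over both fractions held no term for the mouse. The IP and input library of a mouse thus entered as independent, and these p-values do not measure spread between mice alone. The mouse as a replicate block was an alternative. Gene coordinates are from GENCODE M21 and promoter stretches from RefSeq (GRCm38.p6).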

Additional observations from a re-analysis of the deposited data

Results flagged for a closer look

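A sample stood far from the other 3 of its group for 2 of 42 groups examined, by Dixon's test, which chance gives in about 1 group in 20. Lama1 was 5.12 CPM in MPTP IP replicate 1, where the other 3 libraries had 4.03 to 4.15. Col17a1 was 1.03 CPM in MPTP input replicate 4, where the other 3 had 1.34 to 1.39. The 42 groups did not cover every chain, so these 2 do not count outliers over all members. Left out were Col15a1 and Col28a1 in MPTP IP. Replicate 2 had 1.81 CPM of Col15a1, where the other 3 had 0.373 to 0.461. For Col28a1 it had 5.15 CPM, where they had 0.0736 to 0.140.

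The hM4Di change of Col25a1 differed between fractions, by -0.27 on the log2 scale (IP change minus input change). The IP-over-input log2 ratio of control-cargo R6/2 mice minus that of vehicle and wild-type mice differed from 0 for 6 chains: Col11a2 at -0.66, Col16a1 at -0.58, Col4a4 at -1.36, Col5a2 at -1.57, Lama2 at -0.44 and Lama3 at -0.79. Of all genes 10.2% were called lower and 5.32% higher, so the share of chains called lower was near that of all genes. With relative log expression scaling Col4a4 had an adjusted p of 0.0564 in edgeR and the other 5 passed.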

How the results depend on the processing

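In the alternatives run, no value changed sign among those called, and 951 values of single chains kept their side of the threshold, 45 lost it and 18 gained it. Counts of chains called moved by over 1.5 times as follows. For IP against input, limma on log2 FPKM gave 4 higher and 0 lower (MPTP), 7 and 0 (SAPAP3) and 2 and 1 (R6/2); its pseudocount of 1 shrinks the folds of low chains. With no fold threshold there were 18 lower (MPTP), 21 higher and 23 lower (SAPAP3), and 20 and 26 (R6/2). In the main fits of these comparisons 84.5%, 81.1% and 81.3% of all genes had an unadjusted p under 0.05, and 79.2%, 83.0% and 85.2% of the members. For MPTP in IP, DESeq2 and the fit of all 16 libraries called 1 lower. For the knockout, 0 were higher in IP without the 2 mice with over 10 CPM of Xist, and DESeq2 called 1 in input. For hM4Di in IP, 11 higher and 2 lower were called at an adjusted p under 0.1, 12 and 2 by DESeq2, and 10 and 2 with all 16 libraries; 4 higher with the replicate number as a block, and 2 higher without hM4Di replicates 2 and 3 together. For the hM4Di IP change minus input change, 2 were lower with relative log expression scaling and with DESeq2, 3 lower and 2 higher with the mouse as replicate block, and 0 lower without hM4Di replicates 2 and 3. For R6/2 against the other controls, 1 was higher with relative log expression scaling, and 4 higher and 11 lower with the replicate block. Shares of all genes called under the alternatives and with left-out libraries are not given here. The counts of chains called there thus cannot be set against other genes. Causes other than these settings' construction were not tested.

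Leaving out each replicate in turn gave 14 to 16 higher and 9 to 12 lower (MPTP IP against input), 13 higher and 10 to 11 lower (SAPAP3), 11 to 13 and 11 to 15 (R6/2), 0 to 1 higher in knockout IP, 2 to 6 higher and 1 to 2 lower in hM4Di IP, and 0 to 2 lower for hM4Di IP minus input; 0 to 0 in the other comparisons. The replicate block across conditions pairs numbers that do not mark shared animals. Chains under 1 CPM are limited by depth.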
